A study of Mus musculus with 4 samples.

Results

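The promoters described here were those of mouse autosomal protein-coding genes that lie more than 2 kb from any CpG island (CGI). A promoter was the region from 500 bp before to 500 bp after the annotated start site of the transcript with the longest coding sequence, and a CGI was any stretch in which windows of 500 bp starting at a CpG held at least 25 CpGs, which gave 29666 autosomal CGIs. Of 20119 promoters with 3 or more CpGs and 20 or more calls in every library, 7111 had no CGI within 2 kb. A further 12444 overlapped a CGI and 564 had one within 2 kb without overlap. Before these minima 8368 promoters had no CGI within 2 kb, of which 684 held fewer than 3 CpGs and 573 had fewer than 20 calls in at least 1 library, so 1257 were not analysed.

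Whole-genome bisulfite sequencing (WGBS) gave the methylation of single CpGs, since bisulfite converts unmethylated cytosines so that they are read as T while methylated cytosines are still read as C. Cells came from the colon of offspring of Lgr5-EGFP-CreER knock-in reporter mice crossed with wild-type C57 mice. They were taken at birth (P0) and on postnatal day 21 (P21), around weaning. Intestinal stem cells (ISCs) were sorted as Lgr5-EGFP-positive and differentiated epithelial cells as EpCAM-positive and Lgr5-EGFP-negative, which gave 4 groups, both cell types at both ages. Each group had 1 library made from DNA pooled over mice (litters at P0, reporter-positive offspring at P21), so there were no replicates, and every test below compares libraries and not the conditions. EGFP marks only cells in which the reporter is active, so the EGFP-negative population can hold ISCs that had silenced it. The paper names reporter-positive offspring only for P21. Litters at P0 can therefore include pups without the reporter, whose ISCs would be sorted as differentiated cells. The part of this in the comparisons was not tested.

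The level of a promoter was the percent of its calls that were methylated, and where levels are given in pairs the first is that of ISCs and the second that of differentiated cells. A library held 1023427645 to 1188114423 calls, and the median of calls per promoter without a CGI was 228 and 241 for ISCs (P0 and P21) against 370 and 298 for differentiated cells. The median over autosomal CpGs was 16 calls in ISCs at P0 and 25 in differentiated cells at P0, so the differentiated cell libraries were deeper per CpG in these regions although totals were alike. Intervals and limits drawn from calls cover counting error only, since calls on 1 read and copies made by PCR are not independent molecules. A level of a pool also cannot tell a share of cells that are wholly unmethylated from partial methylation in every cell.

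Most mammalian genes of general use start in a CGI, a stretch of dense CpGs that stays free of methylation in nearly all cells. Genes of restricted use more often start outside CGIs, where CpGs are sparse and are methylated by default, and where low methylation marks places bound by transcription factors. In the intestine such genes include many that encode brush border proteins, transporters, enzymes that handle foreign compounds and proteins of mucosal defence, and the weaning period is when the gut adapts to solid food and a denser microbiota.

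The sequences below show 6 of these promoters from 270 bases before to 29 bases after the start site, read from the mm9 genome on the strand of the gene. They were chosen to show the patterns that follow: Vil1 (low in all libraries), Cd3e (high in all libraries), Pigr and Xdh (lower at P21 across the start site), Aqp1 (lower at P21 only past the printed window) and Slc39a2 (higher at P21). Cd3e was chosen after its values were seen. Capitals mark the CpGs, and all other bases are in lower case. The windows are chr1:74455680-74455979 on the plus strand for Vil1, chr9:44817644-44817943 on the minus strand for Cd3e, chr1:132722991-132723290 on the plus strand for Pigr, chr17:74299493-74299792 on the minus strand for Xdh, chr6:55286156-55286455 on the plus strand for Aqp1 and chr14:52513015-52513314 on the plus strand for Slc39a2.
Vil1: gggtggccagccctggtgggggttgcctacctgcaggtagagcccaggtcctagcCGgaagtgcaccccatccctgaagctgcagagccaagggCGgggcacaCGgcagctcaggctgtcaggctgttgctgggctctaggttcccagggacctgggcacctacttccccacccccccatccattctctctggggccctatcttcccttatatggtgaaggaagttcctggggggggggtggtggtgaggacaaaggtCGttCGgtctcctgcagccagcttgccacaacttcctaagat
Cd3e: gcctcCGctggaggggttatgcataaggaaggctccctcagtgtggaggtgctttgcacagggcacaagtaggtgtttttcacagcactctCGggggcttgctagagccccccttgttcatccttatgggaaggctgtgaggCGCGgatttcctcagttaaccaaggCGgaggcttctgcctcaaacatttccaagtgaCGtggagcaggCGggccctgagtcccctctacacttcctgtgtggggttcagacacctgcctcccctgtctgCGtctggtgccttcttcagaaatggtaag
Pigr: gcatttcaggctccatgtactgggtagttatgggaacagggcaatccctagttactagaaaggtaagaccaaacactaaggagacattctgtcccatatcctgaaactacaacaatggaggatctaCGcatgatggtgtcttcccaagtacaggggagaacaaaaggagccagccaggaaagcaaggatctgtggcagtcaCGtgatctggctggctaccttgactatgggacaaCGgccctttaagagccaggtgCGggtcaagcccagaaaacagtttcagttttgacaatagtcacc
Xdh: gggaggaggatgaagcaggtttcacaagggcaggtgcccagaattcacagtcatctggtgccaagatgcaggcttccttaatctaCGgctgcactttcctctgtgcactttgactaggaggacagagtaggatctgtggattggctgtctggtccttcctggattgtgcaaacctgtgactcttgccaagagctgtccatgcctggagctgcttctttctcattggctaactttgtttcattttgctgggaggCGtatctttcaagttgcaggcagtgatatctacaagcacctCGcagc
Aqp1: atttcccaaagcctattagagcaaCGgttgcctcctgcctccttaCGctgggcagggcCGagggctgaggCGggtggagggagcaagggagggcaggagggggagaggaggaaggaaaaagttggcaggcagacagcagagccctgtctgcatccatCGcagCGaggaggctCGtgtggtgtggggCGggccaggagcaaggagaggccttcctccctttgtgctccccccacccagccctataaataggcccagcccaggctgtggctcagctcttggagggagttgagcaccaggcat
Slc39a2: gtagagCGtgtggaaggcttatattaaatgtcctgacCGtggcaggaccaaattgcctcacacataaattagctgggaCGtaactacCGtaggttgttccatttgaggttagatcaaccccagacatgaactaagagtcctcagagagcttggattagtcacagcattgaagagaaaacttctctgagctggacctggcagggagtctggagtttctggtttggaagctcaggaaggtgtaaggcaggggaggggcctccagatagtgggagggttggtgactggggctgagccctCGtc
Each window holds only a few CpGs, 5 in Vil1, 8 in Cd3e, 4 in Pigr, 3 in Xdh, 8 in Aqp1 and 5 in Slc39a2. The letters TATAAA occur 30 bases before the start site of Aqp1. The letters AGGAAGT, which Ets factors bind, occur in Vil1 (52 bases before the start site, and in the other orientation 18 bases after it) and in Cd3e only in the other orientation (39 bases before the start site).

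Promoters without a CGI were mostly methylated, with a long tail towards low levels. Their mean level was 64.8% and 64.5% at P0, then 63.9% and 63.2% at P21, and the medians were 76.5%, 76.4%, 75.7% and 75% in the same order. Promoters that overlapped a CGI had mean levels of 4.62%, 3.95%, 4.88% and 4.27%. The 4 levels of a promoter without a CGI were usually close together: in 5811 of 7111 (81.7%) they lay within 15 percentage points. By level, 857 promoters (12.1%) were low, under 20% in each of the 4 libraries, 2175 (30.6%) were high, over 80% in each, and 4079 (57.4%) were intermediate. Promoters 2 to 3 kb from a CGI, just inside the limit, had medians from 68.9% to 71.9% over the 4 libraries (n = 198), and those 1 to 2 kb from one, just outside it, from 69.9% to 71.6% (n = 222). At the limit on CpGs, 318 promoters held 3 and 377 held 2.

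**Figure D1:**
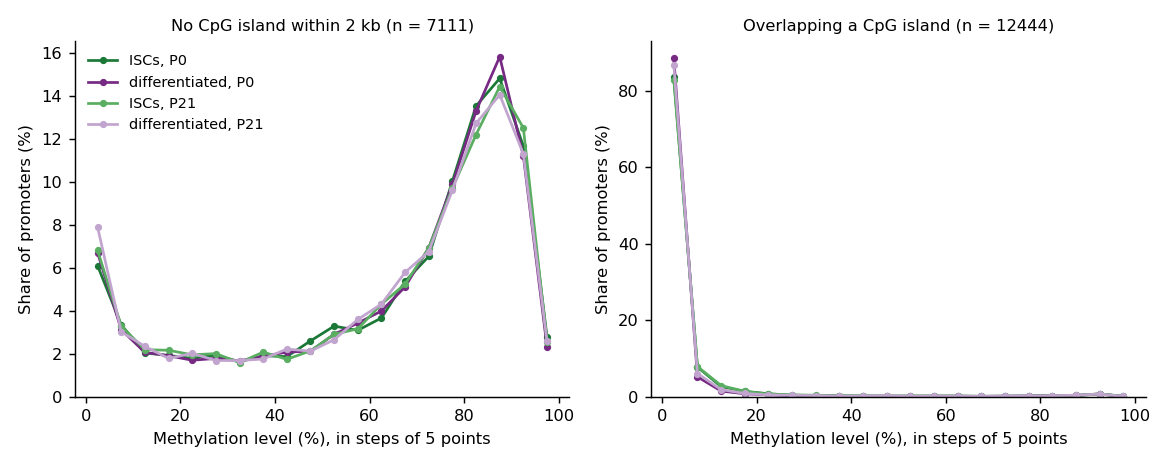
Share of promoters (vertical axis, %) by methylation level (horizontal axis, steps of 5 points) in each of the 4 libraries, for 7111 promoters without a CGI within 2 kb (left) and 12444 that overlap a CGI (right). The vertical scales differ. Promoters without a CGI spread over all levels with most between 60% and 95%, while 82.9% to 88.5% of those with a CGI lie in the lowest step, and the 4 libraries nearly coincide.

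Low promoters held more CpGs than the others. Their median was 23 CpGs in the 1-kb region, against 10 in intermediate and 11 in high promoters, and 504 of the 857 low promoters (58.8%) held 21 CpGs or more in this region. The share of low promoters was 1.02% among promoters with 3 to 5 CpGs, 3.08% with 6 to 10, 6.79% with 11 to 15, 16.5% with 16 to 20, 34.5% with 21 to 30 and 62.4% with 31 to 60. High promoters made up 25.7% to 33.7% of each step up to 30 CpGs, and 14.5% of the step with 31 to 60 (n = 165). A TATA box, searched as TATAAA between 20 and 40 bases before the start site on the strand of the gene, was found in 1.87% of low, 5.32% of intermediate and 3.45% of high promoters, against 2.13% of all 20119 promoters. The distance to the nearest CGI was much the same, with medians of 25.8 kb, 29.5 kb and 30.1 kb.

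**Figure D2:**
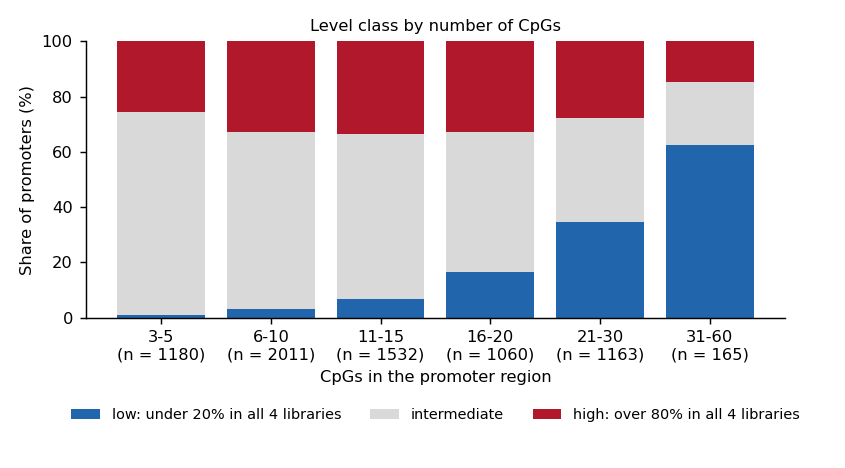
Share of the 7111 promoters without a CGI (vertical axis, %) that were low, intermediate or high in level, by the number of CpGs in the promoter region (horizontal axis, with n). The low share rises from 1.02% with 3 to 5 CpGs to 62.4% with 31 to 60 CpGs.

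The lowest mean levels belonged to genes of general use and to a few of restricted use. Chd2, a chromatin remodeller, had 1 methylated call in 189 in ISCs at P0 and none in the other libraries, where 0 of 290, 0 of 397 and 0 of 268 calls allow levels of up to 1.03%, 0.756% and 1.12%. Ints9, a subunit of the Integrator complex, and Hmbox1, a homeobox protein, are transcribed in opposite directions from overlapping regions on chromosome 14, so their levels, at most 0.521% and 0.426%, are largely the same measurement. Lipa (lysosomal acid lipase), Elmo3 (a cell engulfment adaptor), Ppp2r5c (a phosphatase subunit), Exph5 (a Rab effector), Galk2 (a sugar kinase), Calml4 (a calmodulin-like brush border protein) and 2 gene models without a known role were under 1% in each library, although 0 of 237 calls at Elmo3 in ISCs at P0 allow a level of up to 1.27%. Afm, the vitamin E binding protein afamin, was the exception in CpG number among the 12, with 6 CpGs and levels of 0%, 1.11%, 0% and 0% on 42 to 90 calls, where the zeros allow levels of up to 7.14%, 5.36% and 4.29%.

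Low levels were found at promoters of genes that define the intestinal epithelium. The gene lists were chosen with earlier results of these data known, so their counts describe and do not test. Of 24 brush border and absorptive cell genes without a CGI, 10 were low in all 4 libraries, where 12.1% of all promoters without a CGI were. Vil1, which encodes the microvillus protein villin, had 1.26% and 1.99% at P0 (ISCs and differentiated cells) and 0.422% and 0% at P21, where 0 of 319 calls allow a level of up to 0.940%. All 5 CpGs of the printed Vil1 window were at 0% in each library, the pair nearest the start site on only 1 or 2 calls. Tspan8, a tetraspanin, lay between 0.279% and 1.94% with 17 CpGs, Ceacam1, a cell adhesion protein, between 0.717% and 2.56% with 7 CpGs, and Lgals4, a brush border lectin, between 0.567% and 4.90% with 8 CpGs. These are the lowest of the list, chosen for low levels in each library. Plac8 and Mep1b (a meprin subunit) were the highest of the list and stayed between 80% and 91.3% and between 81.0% and 85.6%.

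Of 11 intestinal transcription factor genes without a CGI, a small number, 5 were low in all libraries, against the same 12.1% of all. Elf3 (an Ets factor of epithelia) lay between 0.238% and 1.98%, Ehf between 0.187% and 2.86%, and Nr1h4, the bile acid receptor, between 0% and 1.78%. Nr5a2, a nuclear receptor of the crypt, reached 5.15% in ISCs at P0 and was at 0 of 124 and 0 of 98 calls at P21, which allow levels of up to 2.42% and 3.06%. Among genes that handle foreign compounds, Nr1i2, the pregnane X receptor, lay between 0% and 2.47% on 9 CpGs, and Gsta4, a glutathione transferase, between 0% and 1.78%.

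Of 30 listed stem cell markers 8 had no CGI, as had 7111 of all 20119 promoters. The medians of the 8 were 22.1% and 23.3% at P0, then 10.8% and 8.11% at P21, but the median change with age was only -0.406 points in ISCs and -0.450 in differentiated cells. None of the 8 was called between the populations at either age, where 2.26% (P0) and 1.93% (P21) of all promoters without a CGI were, so 8 are too few to tell. Rnf43, a Wnt pathway ligase, stayed between 0.145% and 0.512%, Cd44 between 0.132% and 1.67%, and Olfm4, a crypt base protein, between 4.86% and 15.1% in the 4 libraries. For Rnf43 the paper reports a loss in ISCs during the suckling period, in a region beside a CGI. That need not be the region around the start site that was measured here. With age, Aqp1 fell in both populations, and Nrn1, a neuritin gene, rose in differentiated cells from 50.2% to 66.0%, with 59.7% and 60.1% in ISCs.

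Marker genes of other cell types had levels near those of all promoters without a CGI or below them. The 33 leukocyte genes had medians of 79.1% and 79.2% at P0 and 77.4% and 79.0% at P21, with none low and 10 high, where 12.1% of all were low and 30.6% high. Cd3e, the T cell receptor subunit, had 88.1%, 87.2%, 88.8% and 89.2%, and the 8 CpGs of its printed window had levels between 71.4% and 100%. Ms4a1, the B cell protein CD20, had 89.9% to 96.4%. The 20 neural and muscle tissue genes had medians between 67.9% and 73.4%, the 9 erythroid genes between 63.2% and 72.3%, the 36 liver genes between 61.6% and 68.6%, and the 21 mesenchymal, muscle and endothelial genes between 61.3% and 66%, while all promoters without a CGI had medians between 75% and 76.5%. Of these lists, 3 of 21 mesenchymal, muscle and endothelial, 2 of 36 liver, 1 of 9 erythroid and 0 of 20 neural and muscle tissue promoters were low. Among epithelial lists the share also varied, with 3 of 28 goblet and secretory and 3 of 22 suckling to weaning promoters low. Ttr (transthyretin, made by the liver) had 2.02% and 0.441% at P0 and 0 of 209 and 0 of 158 calls at P21. Col1a2 (a collagen chain) had 1.70% to 3.24%.

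The next comparison asked how these promoters changed as ISCs matured from P0 to P21. Losses outnumbered gains. With a call defined as a difference of more than 15 points and an adjusted p below 0.05 (Fisher's exact test of methylated against unmethylated calls, two-sided, Benjamini-Hochberg over all 20119 promoters), 270 of 7111 promoters without a CGI lost methylation (3.80%), against 1.46% of all 20119 promoters tested, and 132 gained it (1.86%), against 0.989% of all. Promoters that overlap a CGI showed the opposite balance, with 45 gains and 10 losses among 12444. Of these 95.4% were under 20% in ISCs at P0, where a loss of over 15 points is hardly possible. They also make up most of all 20119, so the share of losses over all is held down in the same way. Of the 564 promoters with a CGI within 2 kb but no overlap, 22 gained methylation (3.90%) and 14 lost it (2.48%). The median size was 21.1 points for losses and 19.9 points for gains. The mean difference over all 7111 promoters was -0.862 points, with an SD of 0.243 over the means of 19 autosomes, each of which was below 0. It was not confined to the promoters. At 4800 to 5000 bp from the start site the mean difference in ISCs was -0.705 points before it and -0.806 after it. The autosomes come from the same libraries, so they do not repeat the comparison. Losing promoters started at a median of 58.5% and ended at 33.6%, and 72 of the 270 ended under 20%. Gaining promoters went from a median of 46.6% to 66.6%, and 31 of the 132 ended over 80%. By level in ISCs at P0, losses made up 11.4% of promoters that started between 40% and 60%, 1.51% of those over 80% and 0.105% of those under 20%, while gains made up 8.51% of those between 20% and 40%. Of promoters with a CGI overlapping or within 2 kb, losses made up 1.38% of those that started between 20% and 40% (n = 289). Without a CGI they made up 9.48% there (n = 517). Between 40% and 60% the shares were 3.07% with a CGI (n = 163) and 11.4% without. Between 60% and 80% they were 4.31% (n = 209) and 4.72%, and over 80% they were 1.42% and 1.51%. The starting level is part of the difference itself, so these shares describe and do not test.

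The 12 largest losses in ISCs included Pigr, Xdh, Casp1, Aqp1 and Aqp4. Pigr encodes the receptor that carries secretory antibodies across the epithelium. Its promoter (chr1:132722761-132723761) had a level of 76.5% and 73.6% at P0, then 16.3% and 3.66% at P21, on 293 to 492 calls. Both P21 libraries were far below both P0 libraries, with a difference of -60.2 points in ISCs (adjusted p = 1.49e-49, Fisher's exact test with Benjamini-Hochberg adjustment). All 4 CpGs of the printed Pigr window lay between 58.8% and 100% at P0 and between 0% and 21.1% at P21. The CpG 35 bases before the start site went from 65.8% of 38 calls to 0 of 43 in ISCs.

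Xdh, which encodes the purine-degrading enzyme xanthine dehydrogenase, had 64.5% and 49.2% at P0, then 3.17% and 0% at P21. The last value is 0 of 672 calls, which allows a level of up to 0.446%. The difference in ISCs was -61.3 points (Fisher's exact test, adjusted p = 2.03e-83). In the printed Xdh window, the CpG 185 bases before the start site was already low at P0, at 15% of 20 calls in ISCs and 6.90% of 58 in differentiated cells, while those 17 bases before and 24 bases after it were at 72.7% and 75% in ISCs. Casp1, the protease of the inflammasome, had 62.8% and 59.0% at P0, and 4.31% and 4.05% at P21 (difference -58.5 points in ISCs, Fisher's exact test, adjusted p = 5.10e-112). Its CpG 135 bases before the start site was low at both ages, at 8.64% and then 0 of 83 calls in ISCs, whereas the CpG 28 bases after it went from 73.1% to 2.86%. In both genes the later loss therefore lay beside a CpG that was already low at birth.

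Aqp1 encodes a water channel. Its promoter had 55.3% and 56.6% at P0, then 7.09% and 11.3% at P21 (difference -48.2 points in ISCs, Fisher's exact test, adjusted p = 2.23e-79). None of this change came from the printed Aqp1 window, whose 8 CpGs were at 0% in ISCs at P0 and at most 9.09% in any library. The change lay downstream: the CpG 189 bases after the start site went from 75.6% to 9.68% in ISCs and from 81.1% to 8.51% in differentiated cells, and that at 396 bases from 93.5% of 31 calls to 0 of 23 in ISCs. Aqp4, another water channel, had 55.0%, 60.9%, 2.70% and 8.14% in the order used above.

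The other named losses had the same order of ages in both populations. Apol10a, of the apolipoprotein L family, had 79.9% and 88.2% at P0, and 8.82% and 19.9% at P21, the largest difference among the 270 (-71.1 points in ISCs). Mettl7b, a membrane methyltransferase, had 58.2% and 46.6%, then 3.32% and 5.23%. Vnn3, a pantetheinase, had 78.2% and 73.2%, then 25.2% and 25.6%. For these 3 promoters the 2 libraries of an age lay nearer to each other than to those of the other age. Snx20, a sorting nexin, had 68.8% and 68.0%, then 21.6% and 32.3%. Gbp6, an interferon-induced GTPase, had 58.2% and 37.8%, then 11.2% and 12.3%, on only 3 CpGs and 67 to 82 calls. Hsd17b13, a lipid droplet dehydrogenase, had 78.9% and 60.3% at P0, then 16.2% and 35.3% at P21, but the difference of the populations at P0 was -3.82 points as a mean over CpGs. The last of the 12 is a gene model without a known role. The widest 95% Wilson interval of these levels ran from 46.3% to 69.3%, at Gbp6 in ISCs at P0.

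The largest gains in ISCs were smaller than the largest losses. Slc39a2, a zinc importer, had 28.4% and 31.8% at P0, then 65.7% and 59.2% at P21 (difference 37.3 points in ISCs, Fisher's exact test, adjusted p = 4.33e-19). The median of the 5 CpGs in the printed Slc39a2 window went from 32.0% to 55.0% in ISCs and from 21.7% to 44.8% in differentiated cells. Both populations thus had higher levels at P21. Upk1a, a membrane protein of the urothelium, had 33.5% and 34.2% at P0, and 65.5% and 57.2% at P21. Sh2d6, an SH2 domain protein, had 47.9% and 52.9%, then 76.0% and 75.6%, and Nap1l1, a nucleosome assembly protein, 52.9% and 64.1%, then 82.0% and 82.5%. Abi3, an adaptor of actin regulation, had 39.9% and 42.8%, then 68.0% and 60.3%, and Myo3b, a myosin, 31.8% and 37.2%, then 61.9% and 51.0%. In 5 of the 12 the differentiated cells passed no call: beside Myo3b and Hsd17b14, a hydroxysteroid dehydrogenase, Fam55b had 27.0% and 38.2% at P0, and 57.8% and 37.6% at P21, Fam25c 54.3% and 65.0%, then 89.5% and 74.0%, and Nr1h5, a sterol-binding nuclear receptor, 30.1% and 20.8%, then 57.9% and 31.9% on 57 to 144 calls.

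**Figure D3:**
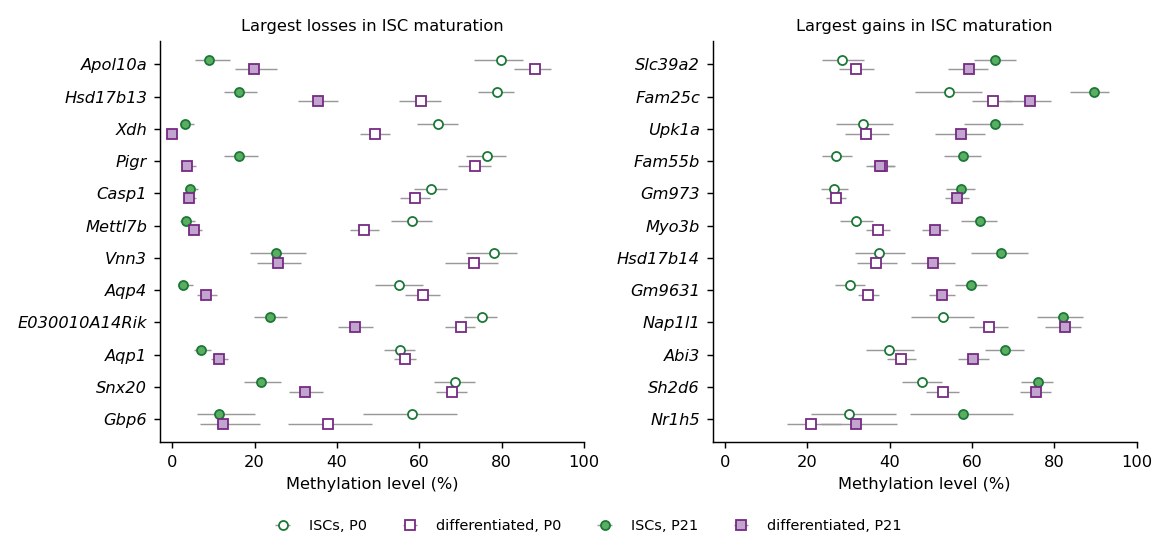
Methylation level (horizontal axis, %) of the 12 promoters with the largest losses (left) and gains (right) in ISC maturation, in ISCs (circles) and differentiated cells (squares) at P0 (open) and P21 (filled), with 95% Wilson intervals. The losses are widely spaced between ages in both populations, and Fam55b shows almost no distance between ages in differentiated cells.

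In differentiated cells the change with age was alike in number and direction. Losses were called at 271 promoters without a CGI (3.81%), against 1.44% of all 20119, and gains at 109 (1.53%), against 0.780% of all. The mean difference was -1.32 points, below 0 on each of 19 autosomes. A like difference was found 4800 to 5000 bp from the start site, at -1.29 points before and -1.28 after it. Pigr, Apol10a, Casp1 and Aqp4 were among the 6 largest losses here too. Another was Tnfsf13, a B cell survival cytokine of the mucosa, with 55.4% and 70.2% at P0, then 12.5% and 11.2% at P21. Gains included Wnt8a, a Wnt ligand of the embryo, with 38.9% and 39.4%, then 64.8% and 67.1%.

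Many of the same promoters were called in both populations, which share no library in this comparison, although both libraries of an age came from mice pooled at that age and may share animals. Of the 270 losses in ISCs, 137 (50.7%) were among the 271 losses in differentiated cells (50.6% of those), where 3.81% of all promoters without a CGI were called. Of the 132 gains in ISCs, 44 (33.3%) were among the 109 gains in differentiated cells (40.4%). No promoter was called in opposite directions. Promoters called as losses in ISCs had a median difference of -15.4 points in differentiated cells and 91.1% of them were below 0 there, against 55.2% of all promoters without a CGI. For gains the median in differentiated cells was 8.96 points, and 82.6% were above 0, against 44.6% of all. The difference between the changes of the 2 populations was itself tested (Wald test of the interaction on the logit scale, Benjamini-Hochberg) and passed at 249 promoters (3.50%), against 3.16% of all 20119. Between the ages, 76 promoters went from 20% or more in both P0 libraries to under 20% in both P21 libraries, and 20 went the other way. Of the 76, 57 were called as losses in either population and 48 in both, so some crossed the line without a call. Crossings were not counted over all 20119 promoters.

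**Figure D4:**
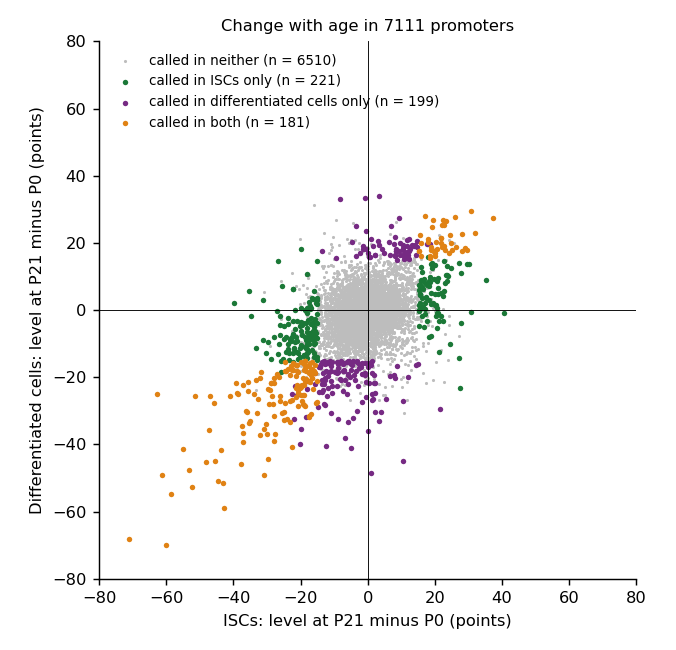
Difference in level from P0 to P21 in ISCs (horizontal axis, points) and in differentiated cells (vertical axis, points) for each of the 7111 promoters without a CGI, coloured by whether the promoter was called in ISCs, in differentiated cells, in both or in neither. The 181 promoters called in both changed in the same direction in both populations, to the lower left or the upper right.

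The calls were made within 500 bp of the start site, and the levels were followed beyond it. Over all promoters without a CGI the mean level in ISCs at P0 was 54.2% in the 200 bp before the start site and 76.5% at 1800 to 2000 bp before it. For promoters called as losses in ISCs, the difference with age in the 200 bp after the start site was -24.0 points in ISCs and -17.5 points in differentiated cells. At 1000 to 1200 bp before the start site it was -4.59 and -1.88 points, against -0.812 and -1.26 for all promoters without a CGI, and at 1000 to 1200 bp after it -5.76 and -5.32 points, against -0.982 and -1.35. For gains it was 19.9 and 10.6 points in the 200 bp after the start site, and 0.213 and 1.77 points at 1000 to 1200 bp before it. The values within 500 bp in ISCs are those that chose the promoters, so a difference within that distance follows from the choice there, while the libraries of differentiated cells were not used to choose. The change usually did not rest on 1 CpG: without its most changed CpG, the difference still exceeded 15 points at 179 of the 270 losses (66.3%) and 85 of the 132 gains (64.4%) in ISCs, a check that can only shrink a difference.

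**Figure D5:**
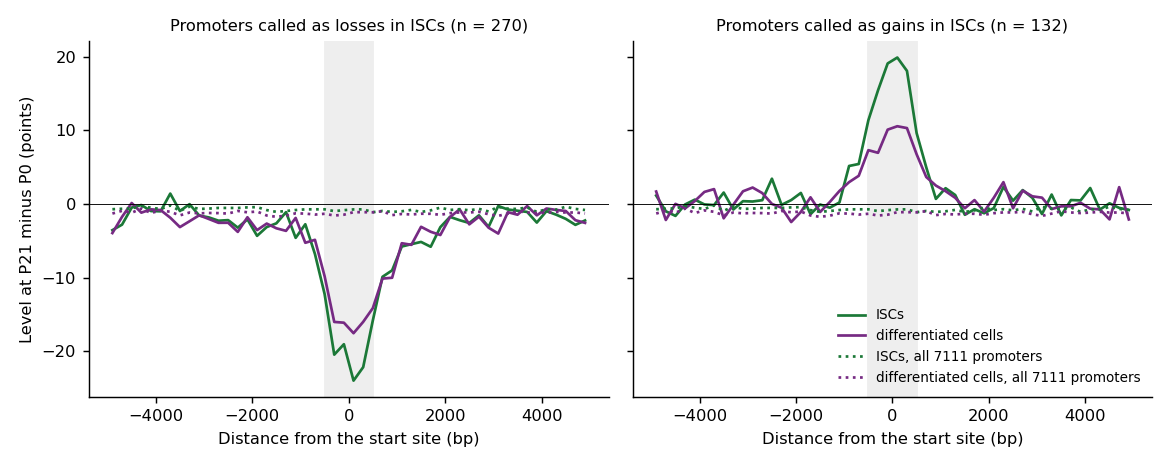
Mean difference in level from P0 to P21 (vertical axis, points) in 200-bp steps along the distance from the start site (horizontal axis, bp) for 270 promoters called as losses in ISCs (left) and 132 called as gains (right), in ISCs and in differentiated cells, with all 7111 promoters as dotted lines. The shaded band is the region of 500 bp to either side in which calls were made. The differences are largest inside the band and are closer to the dotted lines outside it.

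Short motifs are given as a description, searched on both strands from 300 bases before to 100 bases after the start site. CAATAAA (Cdx) was in 10.7% of promoters that lost methylation in ISCs, 4.55% of those that gained it, 7.35% of all promoters without a CGI and 4.63% of all 20119. TGAGTCA (AP-1) was in 10.4%, 5.30%, 7.65% and 5.14% of the same groups, and AGGAAGT (Ets) in 17.8%, 9.85%, 13.6% and 10.3%. GGGCGTG (Klf) showed another order, with 2.96% of losses, 6.82% of gains, 3.6% and 13.1%, and CTTTGAT (Tcf/Lef) had 3.33%, 5.30%, 5.93% and 3.88%. CAAAGTCCA (Hnf4) was in 1.85% of losses, none of the 132 gains, 0.886% of promoters without a CGI and 0.616% of all. With start sites within 1 kb of each other counted once, 151 losses in ISCs had another promoter without a CGI within 50 kb, and for 20 of them (13.2%) such a neighbour was also a loss, against 7.56% of all promoters with such a neighbour.

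Of the lists, genes that handle foreign compounds and steroids had most losses. The lists were chosen with earlier results of these data known. Counts of this list and of those below therefore describe and do not test. Of its 44 promoters without a CGI, 11 lost methylation and 1 gained it in ISC maturation, and 10 lost and 0 gained it in differentiated cells. Over all 7111 promoters without a CGI, 3.80% lost and 1.86% gained it in ISCs, and 3.81% and 1.53% in differentiated cells. The medians of the list were 33.5% and 30.99% at P0, then 15.01% and 14.7% at P21. The share of losses also differed by starting level. Of promoters without a CGI that started between 20% and 40% in ISCs, 9.48% lost methylation there. Of those that started between 40% and 60%, 11.4% did. The part of the starting level in the losses of the list was not tested. The median difference of the list in ISCs was -9.60 points, against -0.359 for all promoters without a CGI, and in differentiated cells -7.51, against -0.520. The sulfotransferase gene Sult1a1 had 44.8% and 43.9% at P0, and 9.46% and 10.2% at P21. The carboxylesterase gene Ces2a had 48.6% and 40.6%, then 12.8% and 19.2%, and the cytochrome P450 gene Cyp4b1 58.4% and 66.3%, then 20.9% and 31.8%. All 3 were called in both populations, as was Hsd17b13. Ces2a is measured on few CpGs, and without the most changed one its difference was -3.44 points in ISCs and 5.64 in differentiated cells, although 3 of 3 and 3 of 4 CpGs with 5 or more calls were lower at P21. Adh6a, an alcohol dehydrogenase gene, had 70.0% and 74.1%, then 37.2% and 43.3%, which were calls in both populations. Abcc2, an export pump of conjugates, fell in ISCs from 76.6% to 50.6%, while differentiated cells had 72.7% and 65.2%. Other losses in ISCs were at Cyp2w1, Aldh1a1, Sult1c2, Ces1d and Cyp4f14, and others in differentiated cells at Ugt2b35, Gsta2, Ces2e, Ces2c and Cyp2c55. Cyp2c55 holds only 3 CpGs and had 69.8% and 92.7%, then 91.2% and 63.4%. The 1 gain in ISCs, at Ces1f, also rests on 3 CpGs.

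Of 38 epithelial host defence promoters, 6 lost methylation and 2 gained it in ISC maturation, and 7 lost and 0 gained it in differentiated cells, against 3.80% and 1.86%, and 3.81% and 1.53%, of all promoters without a CGI. Beside Pigr, Casp1 and Gbp6, the losses in both populations were Ccl20, a chemokine of the follicle epithelium, with 23.0% and 20.7% at P0, and 2.07% and 2.47% at P21, and Gbp2, with 28.3% and 28.6%, then 12.7% and 12.2%. Without its most changed CpG the difference at Gbp2 was -7.87 points in ISCs and -7.12 in differentiated cells. In each population 4 of 4 CpGs with 5 or more calls were lower at P21. Casp4, a sensor of bacterial lipopolysaccharide, had 14.5% and 19.6%, then 3.61% and 1.47%, which passed the call in differentiated cells. Zbp1, a nucleic acid sensor, fell in ISCs from 45.5% to 26.4%. In the other direction, H2-Aa, an MHC class II chain, was called in ISCs with 28.5% and 45.5%, while differentiated cells had 27.9% and 30.04%, but 3 of its 12 CpGs were higher in ISCs at P21 and the mean over CpGs differed by 2.58 points. Not every defence gene had low levels: Il18, an inflammasome substrate, lay between 85.7% and 98.6%, and Gsdmc4, a gasdermin, between 89.4% and 95.6%.

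Among 11 intestinal transcription factor promoters, 2 lost methylation and 1 gained it in ISCs, and 1 lost it in differentiated cells (all promoters without a CGI: 3.80% and 1.86%, and 3.81% lost), counts too small to set against these shares. Hnf4a, a nuclear receptor that directs enterocyte genes, had 31.2% and 24.4% at P0, and 3.22% and 4.19% at P21, calls in both populations. Its CpGs near the start site were low from birth, and the change lay at both ends: 488 bases before it the level went from 70.6% to 37.0% in ISCs, and 351 bases after it from 73.9% to 4.76%. Its paralog Hnf4g had 69.1% and 48.3% at P0, then 29.2% and 50.5% at P21, so it fell in ISCs while the differentiated cells stayed between the ISC values. Pax4, an endocrine factor, was the gain, on 3 CpGs.

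Of 24 brush border promoters, 2 lost methylation and 1 gained it in each population, where 3.80% and 1.86% of all promoters without a CGI did in ISCs and 3.81% and 1.53% in differentiated cells. Guca2b, the hormone uroguanylin, had 27.7% and 33.8%, then 12.2% and 15.1%. Ceacam20 had 67.7% and 60.97%, then 29.1% and 36.0%. Dpep1, a membrane dipeptidase, gained methylation, with 49.2% and 43.8%, then 65.0% and 60%. Of 15 colonocyte transport promoters, 2 lost methylation in each population: Aqp4 in both, Slc3a1, a subunit of the cystine transporter, in ISCs (65.5% to 40.1%), and the water channel gene Aqp8 in differentiated cells (59.2% to 37.0%, although -6.61 points as a mean over CpGs).

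Of 22 promoters of the suckling to weaning list, 3 lost methylation in ISCs, and 2 lost and 2 gained it in differentiated cells, again beside 3.80% lost in ISCs and 3.81% lost and 1.53% gained in differentiated cells among all promoters without a CGI. Fabp2, the intestinal fatty acid binding protein, had 31.7% and 30.9% at P0, and 2.46% and 7.11% at P21, and Treh, the brush border trehalase, 54.5% and 70.2%, then 35.7% and 41.6%, both lower at P21 in both populations. Apoc3, an apolipoprotein, fell in ISCs from 43.6% to 25.5%. Afp, the fetal serum protein, and Cubn, an endocytic receptor of the suckling gut, rose in differentiated cells from 55.7% to 75.2% and from 43.4% to 61.6%, but as a mean over CpGs the difference at Afp was 4.59 points. Of 28 goblet and secretory promoters, 1 lost methylation in ISCs, and 3 lost and 1 gained it in differentiated cells. Muc2, the main mucin of the colon, had 51.5% and 33.7% in ISCs and 44.6% and 32.1% in differentiated cells, and although it was called in ISCs, 6 of its 14 CpGs were lower there at P21 and the difference was -14.2 points without the most changed one. Fcgbp, a mucus protein, fell in differentiated cells from 39.5% to 22.5%. Retnlb, Sytl2 and Reg3a were high, the last between 93.5% and 96.0% on 25 to 43 calls.

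Markers of other cells were also called with age in part. Of 33 leukocyte promoters, 2 lost methylation and 1 gained it in ISCs, and 2 lost it in differentiated cells, against 3.80% and 1.86%, and 3.81% lost and 1.53% gained in differentiated cells, of all promoters without a CGI. Hcls1, of blood cell signalling, was a loss in both, with 66.1% and 76.6%, then 44.9% and 60.2%. Of 21 mesenchymal, muscle and endothelial promoters 1 gained methylation in each population, and of 9 erythroid and 20 neural and muscle tissue promoters none was called. Of 36 liver promoters, 2 gained methylation in ISCs, and 1 gained and 2 lost it in differentiated cells. The leukocyte list had no member that was low in all 4 libraries, and its median difference with age was 0.0234 points in ISCs and 0.0385 points in differentiated cells.

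The last comparisons set differentiated cells against ISCs of the same age. Fewer promoters were called than with age. At P0, 81 promoters had higher levels in differentiated cells (1.14%), against 0.447% of all 20119, and 80 lower (1.13%), against 0.487% of all. At P21, 57 were higher (0.802%), against 0.303% of all, and 80 lower (1.13%), against 0.487% of all. The mean difference was -0.241 points at P0, below 0 on 15 of 19 autosomes, and -0.699 points at P21, below 0 on each. The comparisons at the 2 ages share no library, and 8 of the 81 higher (9.88%) were among the 57 at P21 (14.0%), 8 of the 80 lower (10%) among the 80 at P21 (10%), and 3 were called lower at P0 and higher at P21. Without the most changed CpG, 68 of the 161 calls at P0 and 62 of the 137 at P21 still exceeded 15 points. With each CpG of 5 or more calls counting the same, 55 and 50 still exceeded it and 6 and 11 had the opposite sign, whereas of the 402 and 380 calls with age 299 and 279 exceeded it and none was opposite.

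The largest differences between the populations rested on few calls at most of the named promoters and in some cases on 1 CpG. Krt39, a hair keratin, had 502 to 572 calls, with 28.7% and 61.9% at P0 (Fisher's exact test, adjusted p = 1.54e-26), and 28.8% and 44.8% at P21. At P0, 15 of its 22 CpGs with 5 or more calls were higher in differentiated cells, and the difference of 33.2 points was 14.98 points as a mean over CpGs. At P21 only 3 of 22 were higher and the mean over CpGs was -0.295 points, so the summed calls differed there while most CpGs did not. Klk1, tissue kallikrein, had 50.8% and 82.8% at P0, and 32.5% and 50.8% at P21, on 3 CpGs, and its difference at P0 came from 1 CpG, being 0 without it. Muc5ac, a mucin of the stomach, had 38.2% and 67.3% at P0, and 56.0% and 62.8% at P21. Lower in differentiated cells at P0 were Serpinb2, a protease inhibitor (96.0% and 61.7%), C9, a complement protein (43.9% and 14.4%), and Mx2, an interferon-induced GTPase (47.3% and 19.7%, and at P21 50.6% and 28.7%, called at both ages). The difference at Mx2 was -1.17 points at P0 and -7.33 at P21 without its most changed CpG. The other named promoters at P0 were Olfr1034, Olfr1490, Vmn2r15 and Vmn1r159, receptors of smell and pheromones, and 2 gene models, all with 40 to 143 calls. At Olfr1034 the difference of 33.8 points was 4.54 without the most changed CpG, and the only CpG with 5 or more calls in both libraries had the opposite sign.

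At P21 the largest difference was at Cd28, the costimulatory receptor of T cells, with 70.6% and 68.5% at P0, then 71.4% and 20% at P21 (Fisher's exact test, adjusted p = 2.98e-08). The last library alone was low, on 60 calls with a 95% Wilson interval of 11.8% to 31.8%. Alb (serum albumin) had 54.3%, 57.5%, 59.8% and 31.2% in the same order, Col3a1 (a collagen chain) 48.1%, 32.9%, 48.7% and 22.2%, and C1qc (a complement chain of macrophages) 69.3%, 72.1%, 78.0% and 55.4%. As a mean over CpGs these differences were smaller than by summed calls, at -32.2 points against -51.4 for Cd28, -16.7 against -28.6 for Alb and -11.7 against -22.6 for C1qc. That at Col3a1 was -7.81 points, against -26.5, and in the 1000 bp upstream of the start site it was 6.92. By summed calls Fam81b (-47.9 points), Cts6 (-33.9) and Acnat2 (-32.5) had larger differences than Alb and Col3a1. C1qc is named from the leukocyte list and is not among the 6 largest. Cd28, C1qc and Col3a1 are genes of leukocytes and stroma, cells that a sort on EpCAM would leave out. Beside them, the whole leukocyte list had a median difference of 0.532 points between the populations at P21, with 2 gains and 1 loss among 33, and the mesenchymal list -2.91 points with 0 gains and 2 losses among 21. Over all promoters without a CGI the median was -0.499 points, with 0.802% gains and 1.13% losses. The part of other cells in these differences was not tested. Higher in differentiated cells at P21 were Clec2g, a C-type lectin (31.9% in ISCs and 59.4%), Klk5, a kallikrein of the skin (58.0% and 81.5%, but 3 of 7 CpGs higher and 7.91 points as a mean over CpGs), Krtap5-4, a hair protein (37.8% and 64.9%), the receptor genes Olfr1508 and Vmn1r235 and 1 gene model. Of the epithelial lists, Hnf4g, and by summed calls Hsd17b13, were lower in differentiated cells at P0 and higher at P21, and Ces2c was lower at P21 (34.9% and 10.7%). These are not all the calls. At P0 the lists of colonocyte transport (n = 15), goblet (28), suckling to weaning (22) and foreign compounds (44) each had 1 higher and 1 lower. Brush border (24) had 1 lower and host defence (38) 1 higher, and at P21 host defence had 1 lower. Of all promoters without a CGI, 1.14% were higher and 1.13% lower at P0.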

How the data were processed

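WGBS of 4 libraries (ISCs and differentiated cells at P0 and P21, 1 per group) was used. The authors trimmed the reads and mapped them to mm9 with Bismark and Bowtie; for versions and removal of duplicate reads, the sources used here give nothing, and remaining duplicates would make calls more numerous than molecules. The files deposited by the authors hold, per cytosine of a CpG, the count of calls and how many of them were methylated. The deposited fraction in the same files was not used, and levels were recomputed from the counts.

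Positions off a CpG of the mm9 sequence (0.465% to 0.850%) were left out, and strands were summed. Start sites came from GENCODE M1 on the same build. Promoters were called with Fisher's exact test (chi-square for regions of over 1000000 calls in a library, 8 of them here), Benjamini-Hochberg adjustment and 15 points; the interaction test added 0.5 to each count. Scripts used Python 3.11.15, numpy 2.4.6, pandas 2.3.3, scipy 1.17.1 and numba 0.67.0. Calling was tested on simulated data with independent calls and the same level over a whole region. Such data cannot show errors from shared reads, PCR copies or CpGs of unlike level. Regions of 124 promoters overlapped another's.

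Promoters, gene lists and families were chosen with earlier results of these data known. Named genes were, among promoters with at least 40 calls in each library, the 12 largest gains and losses of ISC maturation, the 6 largest of each other comparison, the 12 lowest mean levels, and, of the lists, called members and the 4 lowest and 2 highest. Gene models without a known role are given by count. Alternatives tried were higher minima (40 or 100 calls, 6 CpGs), 30 points, no test, narrower and upstream regions, other limits for a CGI, thinned calls, CpGs over 200 calls left out, means of CpG levels and chromosome X. A few genes that the rule for named genes or the lists take in are not reported here by name.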

Additional observations from a re-analysis of the deposited data

Results flagged for a closer look

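Among 113 named genes, 27 had a change from P0 to P21 that differed between ISCs and differentiated cells (Wald test of the interaction, adjusted p below 0.05), which compares 4 libraries. Over all 20119 promoters 3.16% passed this test, and since the named genes were chosen for large differences in the same libraries, the count is not read against that share. The test used summed calls, in which a CpG counts by its number of calls. The values below are the change in differentiated cells minus the change in ISCs, in points. ISCs fell further, or differentiated cells rose, at Hnf4g (42.1), Vmn1r235 (41.2), Clec2g (41.0), Hsd17b13 (37.8), Cd53 (29.6), the gene model E030010A14Rik (25.9), Slc7a9 (25.2), Plg (16.03), Nrn1 (15.3), Cubn (14.0) and Slc3a1 (10.9). For Hnf4g the changes were -39.9 points in ISCs and 2.17 in differentiated cells, and for Slc7a9, a cystine transporter subunit, -11.9 and 13.3. The value was below 0 at Cyp2c55 (-50.7), Cd28 (-49.4), Vmn2r15 (-40.1), Alb (-31.9), Fam55b (-31.5), Fam25c (-26.2), C1qc (-25.4), Cytip (-19.8), Pdgfrb (-18.3), Krt39 (-17.1), Aqp8 (-16.4), Myo3b (-16.2), Tnfsf13 (-16.1), Ces2c (-14.2), Gm9631 (-11.6) and Pigr (-9.74). Fam55b, with the smallest adjusted p (1.19e-12), rose by 30.9 points in ISCs and had -0.642 in differentiated cells. Pigr and Tnfsf13 fell in both populations, Pigr by 60.2 points in ISCs and 69.9 in differentiated cells.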

How the results depend on the processing

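Each group had 1 library and the labels carry no replicate numbers, so no replicate block was fitted, and a fit of age averaged over both populations, with 1 residual degree of freedom, was not run. Calls in ISC and differentiated cell maturation (402 and 380) moved by over 1.5 times with a limit of 30 points (57 and 61) and without the most changed CpG (264 and 247), where only loss is possible. Calls of differentiation at P0 and P21 (161 and 137) moved more often: 103 and 87 with at least 100 calls, 10 and 13 over 30 points, 308 and 267 without a test, 105 and 64 within 250 bp of the start site, 306 and 240 in the 1000 bp upstream, 68 and 62 without the most changed CpG, and 55 and 50 as a mean of CpG levels. The mean difference of differentiation was -0.666 points at P0 and -1.05 at P21 in the 1000 bp upstream, and -0.0137 at P0 as a mean of CpG levels. In the upstream region 4 named promoters of differentiation at P21 changed sign: 1700060C20Rik (-0.112), Klk5 (-4.32), Fam81b (12.6) and Col3a1 (6.92). The other mean differences moved by less than the SD over autosomes. Losses stayed the larger share of calls in maturation under each alternative. Leaving out the most changed CpG, counting calls by the mean of CpG levels and measuring 2 kb from the start site were chosen after the data were seen. Depth limits promoters with few CpGs, where 20 calls allow differences of 15 points only with wide error.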

Other observations

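Gene families without a CGI differed in level. The families were chosen with earlier results of these data known, so these values describe and do not test. The 800 olfactory receptor promoters, which encode the receptors of smell, had a median of 84.2% in either cell type at P0, then 83.3% in ISCs and 82.4% in differentiated cells. None of them was low and 358 were high, and in ISC maturation 1 gained and 10 lost methylation, where 1.86% and 3.80% of all 7111 promoters without a CGI did. The 14 promoters of the prolactin family, hormones of the placenta and pituitary, had medians of 84.6%, 91.1%, 87.2% and 82.4%, and the 41 promoters of keratin-associated proteins, which build hair, 80%, 82.4%, 79.9% and 79.5%.

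Zinc finger genes were split instead. Of 104 promoters 47 were low and 36 high in all 4 libraries, with 0 gains and 2 losses in ISC maturation, where 12.1% of all promoters without a CGI were low, 30.6% high, 1.86% gained and 3.80% lost. The 43 interferon-induced and guanylate-binding promoters had the lowest median of the families, 46.7% and 44.8% at P0, and 41.7% and 31.5% at P21, with 11 low, and 1 gain and 4 losses in ISC maturation. The 114 solute carrier promoters had medians from 58.0% to 65.8%, with 5 gains and 10 losses in ISC maturation, to be read beside the same shares.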
